A study of Mus musculus with 4 samples.

Results

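The genes described here carry, sense, make and degrade retinoic acid: the cellular retinoic acid-binding proteins Crabp1 and Crabp2, the retinoic acid receptors Rara, Rarb and Rarg, the retinoid X receptor Rxra, the retinol transporter Stra6, the retinol dehydrogenase Rdh10 and the retinoic acid hydroxylase Cyp26b1. They were taken by gene symbol, and all 9 were found among the 18193 genes with a probe set of their own on the array, on 13 probe sets. Crabp1 and Crabp2 entered because earlier results of these data placed them at opposite ends of the comparison, and the other 7 belong to the same pathway. The levels of the 9 genes are therefore given as a description, without p-values.

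Total RNA was hybridised from 2 samples of unstimulated L929 cells and 2 samples of unstimulated NIH3T3 cells on Affymetrix Mouse Genome 430 2.0 arrays. L929 is a clone of mouse connective tissue fibroblasts, NIH3T3 a line of fibroblasts derived from mouse embryos, and neither was treated or altered according to the labels. The submitters chose L929 as sensitive to necrosis and NIH3T3 as sensitive to apoptosis. With 1 line for each kind of sensitivity, the line and the sensitivity cannot be told apart, and the labels do not say whether the 2 samples of a line were separate cultures.

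Cells take up retinol, store it as esters or oxidise it to retinal and then to retinoic acid. Retinoic acid is insoluble in water and is held in the cytoplasm by CRABP1, which is linked to its breakdown, and CRABP2, which delivers it to nuclear receptors. There, heterodimers of a retinoic acid receptor and a retinoid X receptor bind paired hexamers in DNA and switch between repression and activation when the ligand arrives. CYP26 enzymes oxidise and clear the ligand. In mesenchymal cells the pathway is known for its roles in patterning and differentiation.

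The 250 bases before the annotated start of Crabp1 are shown because this gene had the largest difference of the group, and those before Rarb because they hold the response element through which retinoic acid receptors are known to regulate their own gene. Capitals mark GC boxes (GGGCGG on either strand) in Crabp1 and the 2 hexamers of the repeat in Rarb. Both are RefSeq sequences of build GRCm38.p6, written 5′ to 3′ along the gene.
Crabp1, chr9:54764498-54764747, plus strand: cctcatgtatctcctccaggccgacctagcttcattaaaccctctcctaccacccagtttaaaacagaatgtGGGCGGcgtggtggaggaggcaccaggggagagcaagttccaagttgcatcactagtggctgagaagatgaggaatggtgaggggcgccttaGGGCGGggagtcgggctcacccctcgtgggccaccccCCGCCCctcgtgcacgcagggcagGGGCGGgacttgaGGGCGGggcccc
Rarb, chr14:16575477-16575726, minus strand: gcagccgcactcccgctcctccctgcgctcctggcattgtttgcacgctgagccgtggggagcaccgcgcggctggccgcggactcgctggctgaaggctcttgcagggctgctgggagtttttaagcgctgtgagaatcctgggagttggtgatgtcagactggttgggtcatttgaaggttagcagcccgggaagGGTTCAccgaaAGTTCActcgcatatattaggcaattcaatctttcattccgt

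Windows of 300 bases, from 250 before to 50 after an annotated start, were listed for 7 of the 9 genes, 15 windows in all; Crabp2 and Rdh10 were not in the table used. Each was searched on both strands for the receptor hexamers, namely the consensus AGGTCA, the variant AGTTCA, the variant GGGTCA and the variant GGTTCA, and for pairs of these in the same orientation with 1, 2 or 5 bases between them. The pair with 5 bases between was found in the Rarb window, at bases -53 to -37 from the start, and in 0 of the other 14 windows of the group. It occurred in 32 of all 32851 windows, or 0.0974%. Pairs with 1 or 2 bases between were found in 0 of the 15 windows, against 0.222% and 0.268% of all windows. A hexamer alone is common: 6 of the 15 windows held at least 1, against 43.7% of all windows, and the hexamers of the Rarb pair are counted among them.

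Cyp26a1 is a hydroxylase of the same family as Cyp26b1 and a well-known retinoic acid target. It was the only gene outside the group that was examined by itself. Its window held such a pair, at bases -32 to -16 on the opposite strand. The elements are printed here with 5 bases on each side, in the direction in which the repeat reads forward, with the hexamers in capitals.
Rarb, chr14:16575508-16575534, minus strand: ggaagGGTTCAccgaaAGTTCActcgc
Cyp26a1, chr19:37697771-37697797, minus strand: aaattAGTTCAcccaaAGTTCAtcttt

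The Crabp1 window held 5 GC boxes and no receptor hexamer, with 65.0% GC. At least 5 GC boxes were found in 2.71% of all windows, and at least 1 in 35.7%; in the group 10 of 15 windows held 1 or more. Windows 1 and 2 of Rara overlap, as do windows 1 and 2 of Stra6, so the same boxes can be counted more than once: with overlapping windows joined, 8 of 13 regions held a GC box and 6 of 13 a receptor hexamer. The shares of all windows were not joined in this way. A match is a match of letters and does not show that a protein binds there.

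Signals are MAS5 values in arbitrary units, scaled so that all 4 arrays have the same trimmed mean. As deposited, the median signal was 23.5 to 24.0 on 3 arrays and 38.3 on NIH3T3 replicate 2. After scaling, replicates correlated with r = 0.982 in L929 and 0.981 in NIH3T3 across 27438 probe sets, against 0.835 to 0.843 between the lines; probe sets are not independent, so these values only describe the arrays. A signal of 17.3, which 40% of scaled signals do not exceed, served as the filter level, and a probe set was tested where L929 or NIH3T3 exceeded it on both arrays. Of 10 fibroblast markers, 7 lay above the level on both L929 arrays and 9 on both NIH3T3 arrays. Fap was not above it on any of the 4 arrays, and Thy1, Dcn and Lum measured 30.0 or less on the L929 arrays against 548 or more on the NIH3T3 arrays. Of 5 epithelial, 4 leukocyte, 4 endothelial and 3 adipocyte markers, 2, 1, 1 and 0 lay above it on both L929 arrays and 2, 1, 0 and 0 on both NIH3T3 arrays. Summed signals in L929 and NIH3T3 were 113 to 126 and 130 to 141 for the epithelial markers, 50.7 to 66.2 and 79.7 to 84.9 for the leukocyte markers, 47.5 to 70.7 and 45.7 to 65.96 for the endothelial markers and 9.60 to 28.9 and 13.1 to 23.5 for the adipocyte markers. Their part in the results was not tested.

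**Figure D1:**
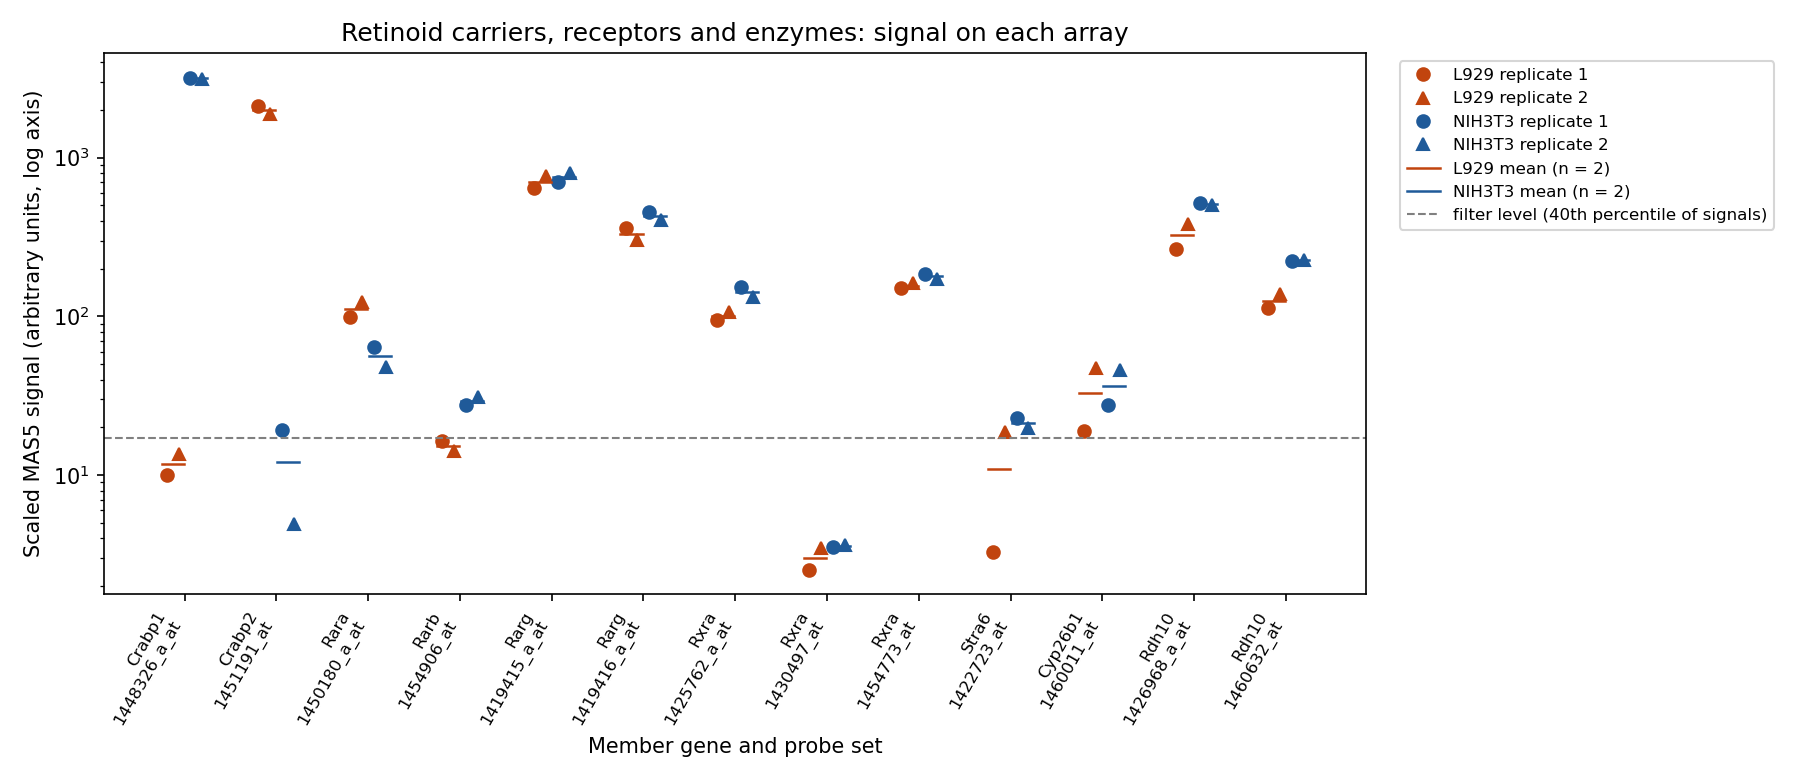
Scaled MAS5 signal (log axis) of each probe set of the 9 retinoid genes on the 2 L929 arrays (orange) and 2 NIH3T3 arrays (blue); short lines are means of 2 arrays and the dashed line is the filter level of 17.3. Crabp1 averages 3146 in NIH3T3 and Crabp2 averages 2002 in L929, each near or under the filter level in the other line. The line means of the other 11 probe sets lie nearer to each other. Of the 12 tested probe sets, 2 are higher and 8 lower in L929 without overlap, and 69.9% of all probe sets tested do not overlap.

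Of the members, the carriers of retinoic acid differed most between the lines, and they had been chosen for this from the same data. NIH3T3 had a bright Crabp1 signal and a dim Crabp2 signal, and L929 the reverse. Crabp1 (probe set 1448326_a_at) measured 3185 and 3107 in NIH3T3 and 10.1 and 13.6 in L929. Both L929 values lay under the filter level; set against that level, Crabp1 was at least 182-fold lower in L929. On the scale of log2(signal + 8.01), Crabp1 differed by -7.32 ± 0.13 (L929 minus NIH3T3; SE from limma, n = 2 per line). This fitted value depends on the offset added, since L929 lay under the filter level, and Crabp1 was tested only through NIH3T3. As these are whole-culture RNA samples, fewer cells with the transcript and less of it in each cell cannot be told apart.

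Crabp2 (probe set 1451191_at) measured 2121 and 1882 on the L929 arrays. On the NIH3T3 arrays it measured 19.2 and 4.94, of which 1 lay above the filter level, so it was tested only through L929. The lines were far from overlapping, and the fitted difference, which also depends on the offset, was 6.74 ± 0.30 on the log2 scale. No fold is given, because the NIH3T3 mean of 12.1 ± 10.1 (SD, n = 2) lay under the filter level. Without NIH3T3 replicate 1 the difference was 7.28, and without NIH3T3 replicate 2 it was 6.21.

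Setting the signals of the paralogues against each other on the same array removes any scaling between arrays. Probe sets bind with different strength, so the ratio on 1 array has no meaning as a ratio of transcripts, but its change from line to line does not depend on that strength while both signals are above background. The log2 ratio of Crabp2 over Crabp1 was 7.72 and 7.11 in L929 and -7.38 and -9.30 in NIH3T3. The ratio thus changed sign between the lines, by a shift of 15.75, and both arrays of each line lay on the same side. Because the dim member of each pair was near background, the size of this shift is uncertain: with every signal under 17.3 raised to that level, an alternative chosen after seeing the data, the shift was 14.29, and with the offset added to every signal it was 14.06.

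**Figure D2:**
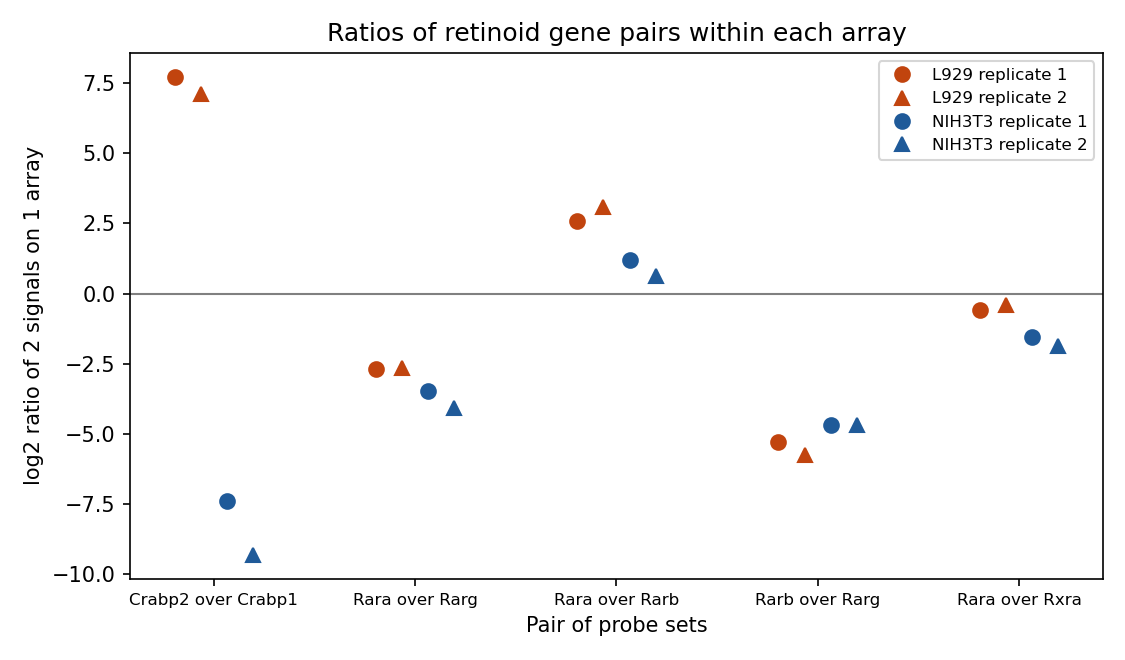
log2 ratio of the signals of 2 probe sets on the same array, as deposited, for 5 pairs of retinoid genes; each point is 1 array, orange for L929 and blue for NIH3T3. Crabp2 over Crabp1 is above 7 on both L929 arrays and below -7 on both NIH3T3 arrays, while the receptor ratios move by 2 log2 units or less.

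Genes alike in profile over the 4 arrays were sought by Euclidean distance between log2 values centred on each gene's mean. Symbols in the form of clone or predicted-gene names were left out, which can include some ordinary gene names. Of the rest, the 5 genes nearest to Crabp1 were Ramp3, Ckap4, Tmsb4x, Ubqln2 and Cavin2, at distances of 0.13 to 0.48. Nearest to Crabp2 were Ripk3, Cadm4, Pla2g5, Fabp4 and Lonrf3, at distances of 0.78 to 1.01. Fabp4 encodes a fatty acid-binding protein of the same lipocalin-like family as the CRABPs. It measured 3068 and 2838 in L929 and 37.0 and 34.3 in NIH3T3. Fabp4 was not among the 3 adipocyte markers above, of which 0 lay above the filter level on both arrays of either line. Over 4 arrays of 2 lines, a likeness of profiles is set mainly by the size of the line difference.

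Of the receptors, which turn retinoic acid into a transcriptional signal, Rara was higher in L929 and the others did not pass the thresholds explained with it. Rara (1450180_a_at) measured 99.3 and 122 in L929 and 64.1 and 47.7 in NIH3T3. All 4 signals were above the filter level and the lines did not overlap. The difference was 0.90 ± 0.22 on the log2 scale, or 1.87-fold. It passed the thresholds used for all probe sets, which are a Benjamini-Hochberg adjusted p under 0.05 in limma and a fold above 1.5. It no longer passed without L929 replicate 2 (0.76), without NIH3T3 replicate 2 (0.72) or with the arrays left unscaled (0.64).

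Rarb, the receptor that carries the response element shown above, was dim in both lines. Its probe set (1454906_at) measured 16.5 and 14.3 in L929, both under the filter level, and 27.7 and 31.2 in NIH3T3. The lines did not overlap, with a log2 difference of -0.68 ± 0.28 that did not pass the thresholds. It did pass without the mean-variance trend in limma, at the same difference. Rarb was tested only through NIH3T3, its brighter line.

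Rarg, the receptor usually prominent in skin and cartilage, has 2 probe sets that gave bright signals in both lines. Probe set 1419415_a_at measured 638 and 768 in L929 and 702 and 795 in NIH3T3, so that the lines overlapped, with a log2 difference of -0.09 ± 0.13 whose sign turned to 0.04 without L929 replicate 1. Probe set 1419416_a_at measured 359 and 304 in L929 and 456 and 403 in NIH3T3. These lines did not overlap, with a difference of -0.37 ± 0.13 that did not pass the thresholds.

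Rxra, the shared heterodimer partner, has 3 probe sets. In 1454773_at it measured 150 and 162 in L929 and 185 and 173 in NIH3T3, a difference of -0.19 ± 0.14 on the log2 scale. In 1425762_a_at it measured 95.3 and 106 in L929 and 153 and 133 in NIH3T3, a difference of -0.47 ± 0.17. Both were lower in L929 without overlap, and neither passed the thresholds. The third, 1430497_at, lay between 2.54 and 3.66 on all 4 arrays, under the filter level, and was not tested.

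Within an array, the receptors shifted against each other far less than the carriers did. The carriers were chosen for their opposite differences in these same data, so nothing is read from this contrast. The log2 ratio of Rara over Rarg was -2.68 and -2.65 in L929 and -3.45 and -4.06 in NIH3T3, a shift of 1.09. That of Rara over Rxra was -0.60 and -0.40 in L929 and -1.53 and -1.85 in NIH3T3, a shift of 1.19. That of Rara over Rarb was 2.59 and 3.10 in L929 and 1.21 and 0.62 in NIH3T3, a shift of 1.93, with Rarb under the filter level in L929. For Rarb over Rarg the shift was -0.85. In each of these 4 ratios the lines did not overlap. The ratios share probe sets, and the lines did not overlap on 69.9% of all single probe sets tested, so nothing is read from this.

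Among the enzymes, Rdh10, which oxidises retinol to retinal and is needed for retinoic acid synthesis in the embryo, was lower in L929 on both of its probe sets. In 1426968_a_at it measured 266 and 384 in L929 and 514 and 504 in NIH3T3, a log2 difference of -0.66 ± 0.16, or 1.58-fold. In 1460632_at it measured 112 and 139 in L929 and 224 and 226 in NIH3T3, a difference of -0.81 ± 0.15, or 1.75-fold. The lines did not overlap on either, and both passed the thresholds. The first no longer passed without L929 replicate 1 (-0.40), without NIH3T3 replicate 1 (-0.64), without NIH3T3 replicate 2 (-0.67) or without the trend, and neither passed with the arrays left unscaled (-0.94 and -1.08).

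Cyp26b1, which clears retinoic acid, was dim and varied more between replicates than between the line means of 33.0 in L929 and 36.6 in NIH3T3. It measured 19.1 and 47.0 in L929 and 27.5 and 45.8 in NIH3T3 (1460011_at), with overlapping lines and a log2 difference of -0.18 ± 0.39. The difference was 0.33 without L929 replicate 1 and -0.69 without L929 replicate 2, so it has no settled sign.

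Stra6, the membrane receptor that takes up retinol from its plasma carrier, was near the filter level. It measured 3.27 and 18.7 in L929 and 22.8 and 19.8 in NIH3T3 (1422723_at), a log2 difference of -0.75 ± 0.42 that did not pass the thresholds. The value rests on L929 replicate 1: without it the difference was -0.13, and without L929 replicate 2 it was -1.38 and passed. Stra6 was tested only through NIH3T3.

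**Figure D3:**
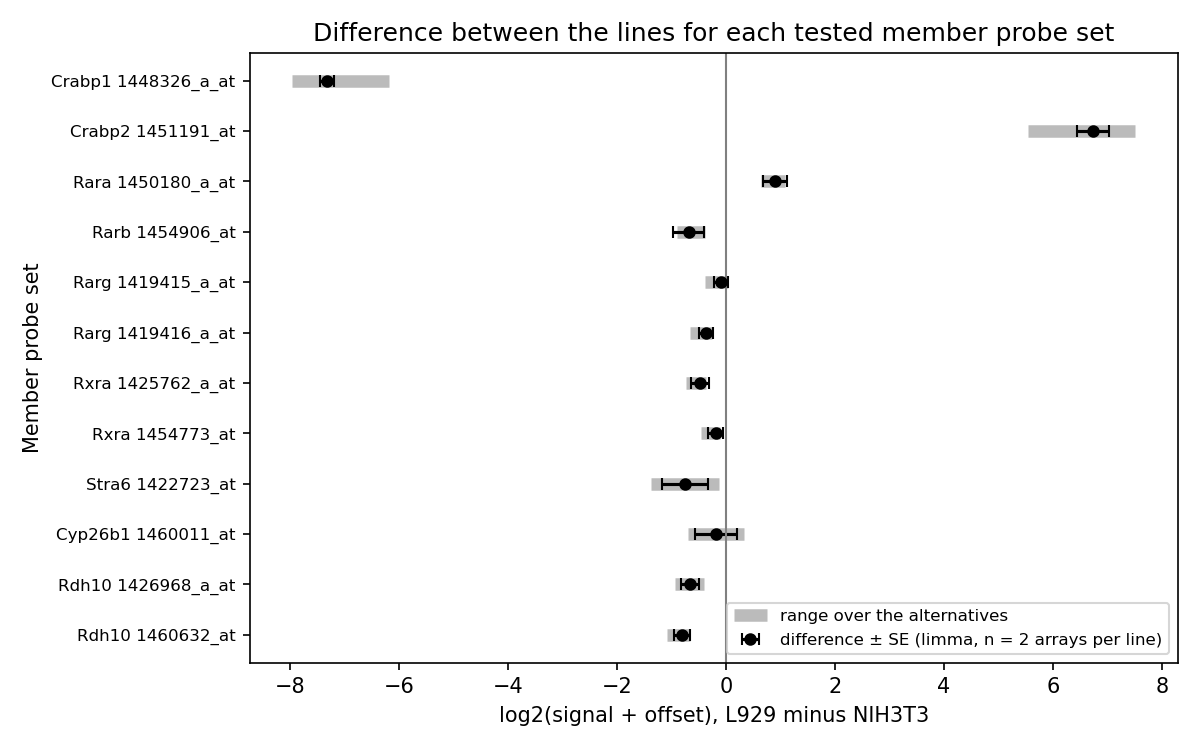
Difference between the lines on the log2(signal + offset) scale, L929 minus NIH3T3, for the 12 tested probe sets; points and bars are the limma estimate ± SE (n = 2 arrays per line) and grey bands the range over the alternative settings. Crabp1 and Crabp2 stand at -7.32 and 6.74, and the other 10 probe sets lie between -0.81 and 0.90.

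In all, 12 of the 13 probe sets were tested, 8 of them above the filter level on all 4 arrays, 1 tested only through L929 and 3 only through NIH3T3. Of these 12, 2 passed the thresholds higher in L929 (Crabp2 and Rara) and 3 lower (Crabp1 and both of Rdh10). Over all 27438 probe sets tested, 14.9% passed higher and 16.7% lower. Since the members were chosen with these values known, nothing is read from the count. The lines did not overlap on 10 of the 12, 2 higher and 8 lower in L929, and this was so for 69.9% of all probe sets tested, 34.1% higher and 35.8% lower. The median log2 difference was -0.42 over the 12 and -0.01 over all probe sets tested.

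The rest of the pathway was followed in 80 further gene symbols listed by role, among them both Bco1 and its older symbol Bcmo1. Of these 70 had a probe set of their own and 46 were tested, while the other 10 were not analysed here. Using 1 probe set per gene, 12 genes were higher and 7 lower in L929, together 41.3% of those tested. Over all 12676 genes tested, 17.3% were higher and 17.6% lower, together 34.8%. The median log2 difference was -0.04, against 0.01 over all genes. The lists were made with earlier results of these data known, so the adjusted p-values given below only describe the genes. Of the 19 genes that passed, 8 did so in every alternative that gave a value.

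**Figure D4:**
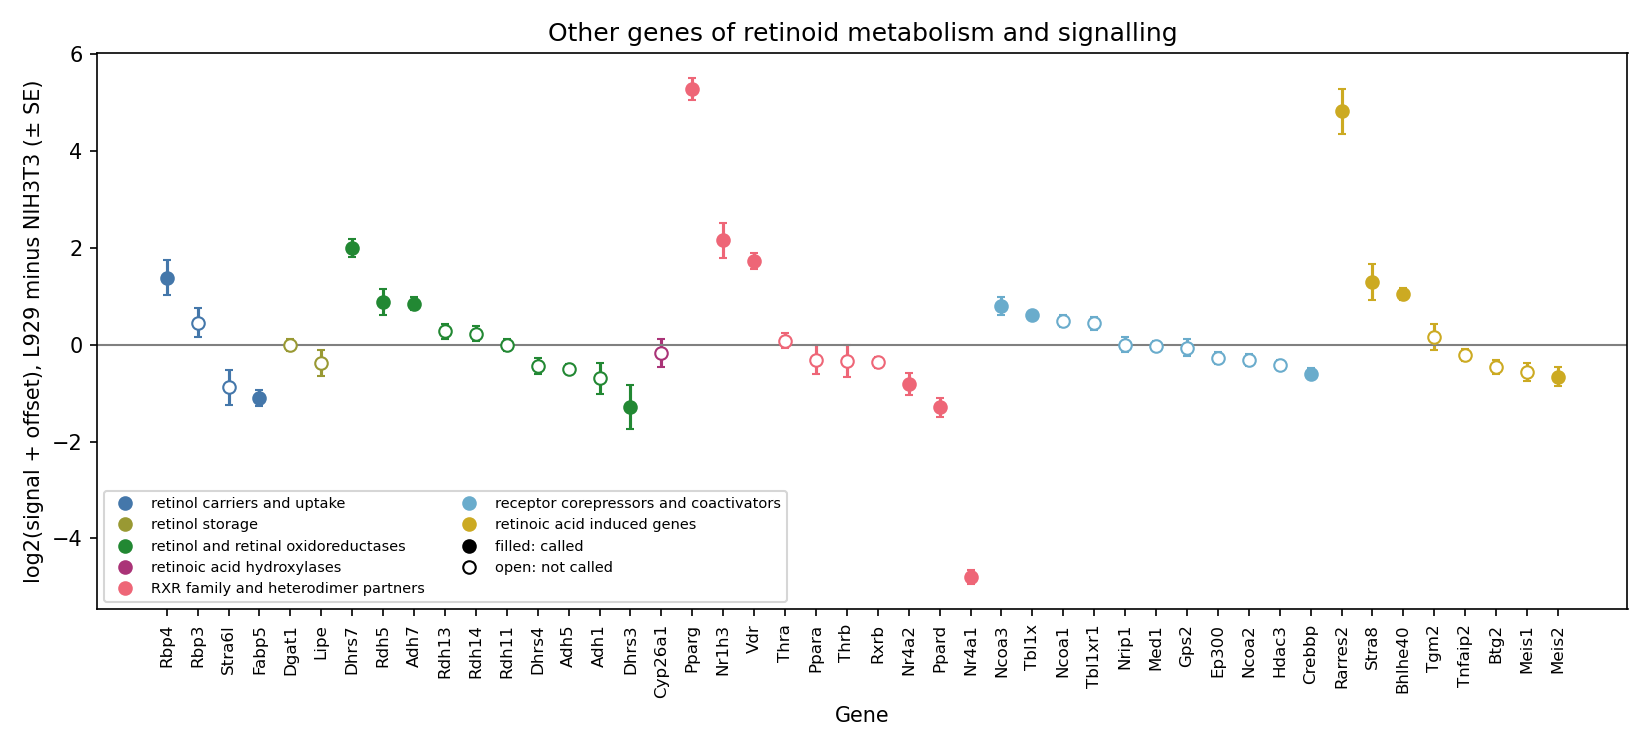
Difference between the lines on the log2(signal + offset) scale, L929 minus NIH3T3, for 46 tested genes of retinoid metabolism and signalling, grouped by role; bars are the limma SE (n = 2 arrays per line), filled points passed the thresholds and open points did not. Pparg and Rarres2 stand highest at 5.28 and 4.82, and Nr4a1 lowest at -4.79.

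None of the 4 retinal dehydrogenases listed, which make retinoic acid from retinal, was tested. No probe set of theirs exceeded the filter level on both arrays of a line. The highest signal on any array was 4.97 for Aldh1a1, 2.42 for Aldh1a2, 17.9 for Aldh1a3 and 22.05 for Aldh8a1. Those of Aldh1a3 and Aldh8a1 lay above the filter level. The retinol-esterifying enzyme Lrat reached 15.1 at most and was not tested. Cyp26a1, the hydroxylase with the repeat shown above, measured 31.4 and 21.5 in L929 and 28.0 and 33.2 in NIH3T3. The lines overlapped, with a log2 difference of -0.18 ± 0.29 (limma adjusted p = 0.653).

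Of 10 tested retinol and retinal oxidoreductases 3 were higher and 1 was lower in L929, against 17.3% and 17.6% of all genes tested. Dhrs7, a short-chain dehydrogenase, measured 279 and 240 in L929 and 67.6 and 51.8 in NIH3T3, 3.97-fold higher (limma adjusted p = 5.8e-05). Adh7, an alcohol dehydrogenase active on retinol, was 1.80-fold higher (adjusted p = 0.0012), and Rdh5, a retinol dehydrogenase best known from the eye, 1.84-fold higher (adjusted p = 0.027). The 2 tested probe sets of Adh7 had log2 differences of 0.41 and 0.84. Dhrs3, which reduces retinal back to retinol, measured 2.57 and 20.4 in L929 and 38.7 and 30.4 in NIH3T3, with 1 L929 array above the filter level and a log2 difference of -1.29 ± 0.46 (adjusted p = 0.0496). Its size rests on L929 replicate 1: the log2 difference was -0.57 without that array (adjusted p = 0.280) and -2.00 without L929 replicate 2 (0.0031). The call was likewise lost when either NIH3T3 array was left out, at -1.15 without replicate 1 (adjusted p = 0.208) and -1.44 without replicate 2 (0.114). Dhrs3 entered the test only through NIH3T3, and it passed in 7 of the 14 alternatives in which it was tested. Rdh5 did not pass without L929 replicate 2 (adjusted p = 0.169) or without NIH3T3 replicate 1 (0.0943), its adjusted p ranging from 0.012 to 0.352, and neither Rdh5 nor Adh7 passed unscaled. Adh5, which also acts on formaldehyde adducts, differed by -0.50 ± 0.11 (limma adjusted p = 0.0052), a 1.42-fold difference under the fold threshold. Its 2 tested probe sets had log2 differences of -1.41 and -0.50. Adh5 passed with probe sets averaged (-0.96) and without L929 replicate 1 (-0.59).

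Of 4 tested carriers and uptake proteins 1 was higher and 1 lower, against 17.3% and 17.6% of all genes tested. Fabp5, a fatty acid-binding protein that can also carry retinoic acid, to the receptor PPARδ, was bright in both lines, at 2978 and 3175 in L929 and 7394 and 5902 in NIH3T3. It was 2.15-fold lower in L929 (log2 difference -1.10 ± 0.17, limma adjusted p = 8.7e-04), and passed in all 15 alternatives. Rbp4, the plasma carrier of retinol, measured 28.1 and 22.2 in L929 and 1.85 and 8.19 in NIH3T3, a signal at least 1.45-fold higher in L929 (adjusted p = 0.014). It was tested only through L929, its brighter line, and not at all when the filter was made stricter or applied to the mean over the 4 arrays. It did not pass without L929 replicate 1 (adjusted p = 0.0647) or without NIH3T3 replicate 1 (0.0840), the highest of a range from 0.0077 over its alternatives. Stra6l, a relative of Stra6, measured 13.1 and 4.19 in L929 and 20.3 and 22.7 in NIH3T3 (log2 difference -0.88 ± 0.36, adjusted p = 0.080), and passed without L929 replicate 1 (0.0380), within 0.0380 to 0.396. Rbp3, the retinoid carrier of the retina, stood at 0.46 ± 0.29 (adjusted p = 0.237). Both lay close to the filter level, Stra6l tested only through NIH3T3 and Rbp3 only through L929.

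The nuclear receptors that share RXR as a partner included genes with wide differences between the lines. Of 10 tested members of this list 3 were higher and 3 lower in L929, against 17.3% and 17.6% of all genes tested. Pparg, the adipogenic fatty acid receptor, measured 410 and 374 in L929 and 2.30 and 2.29 in NIH3T3, a level at least 22.7-fold higher in L929 (limma adjusted p = 8.0e-07), and was tested only through L929. Vdr, the vitamin D receptor, measured 228 and 213 in L929 and 57.7 and 64.0 in NIH3T3, 3.32-fold higher (adjusted p = 7.0e-05). Nr1h3, the oxysterol receptor LXRα, measured 68.3 and 82.7 in L929 and 5.18 and 18.4 in NIH3T3. The log2 difference was 2.16 ± 0.37 (limma adjusted p = 0.0017). With 1 NIH3T3 array above the filter level, Nr1h3 too was tested only through L929.

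In the other direction, Nr4a1, an immediate early orphan receptor, measured 26.5 and 21.5 in L929 and 869 and 884 in NIH3T3, 27.7-fold lower in L929 (limma adjusted p = 1.7e-07). Its relative Nr4a2 was 1.76-fold lower (limma adjusted p = 0.017). This call was lost without NIH3T3 replicate 1 (log2 difference -0.78) and with the arrays left unscaled. Nr4a2 has 4 tested probe sets, and the brightest was chosen anew in each alternative, so the value of -0.78 can come from another of them. Ppard, the receptor that FABP5 serves, measured 75.8 and 103 in L929 and 207 and 254 in NIH3T3, 2.46-fold lower (adjusted p = 7.7e-04). Pparg, Vdr, Nr1h3, Nr4a1 and Ppard passed in all 15 alternatives. Rxrb differed by -0.37 ± 0.12 (limma adjusted p = 0.036), under the fold threshold, and Thra by 0.08 ± 0.16 (0.687). Thrb differed by -0.34 ± 0.33 (0.435) and Ppara by -0.31 ± 0.31 (0.448), both tested only through NIH3T3. Thra passed as higher when all of its 3 tested probe sets, which ranged from 0.08 to 1.09, were averaged. Rxrg reached 46.1 at most but did not exceed the filter level on both arrays of either line, and was not tested.

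Of 11 tested corepressors and coactivators, which the receptors recruit without or with ligand, 2 were higher and 1 lower in L929. Among all genes tested, 17.3% were higher and 17.6% lower. The coactivator Ncoa3 was 1.74-fold higher (limma adjusted p = 0.0082) and Tbl1x, a subunit of the corepressor complex, 1.52-fold higher (adjusted p = 0.0013). The acetyltransferase Crebbp was 1.51-fold lower (adjusted p = 0.0021). On the log2 scale the 2 tested probe sets of Ncoa3 stood at 0.45 and 0.80, and the 3 of Crebbp ranged from -1.13 to -0.33. The calls of Tbl1x and Crebbp sat at the fold threshold and were lost with quantile normalization. Ncoa3 did not pass without L929 replicate 2 (adjusted p = 0.0562, within 0.0029 to 0.468), Tbl1x without L929 replicate 1 or NIH3T3 replicate 2 and Crebbp without NIH3T3 replicate 2, the last 2 genes because their fold fell under 1.5.

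Of 8 tested genes known to be induced by retinoic acid in one cell type or another, 3 were higher in L929, 1 was lower and 4 did not pass. Over all genes tested 17.3% were higher and 17.6% lower. The median log2 difference was -0.03 over the 8 and 0.01 over all genes. Rarres2, which encodes the adipokine chemerin, measured 701 and 553 in L929 and 4.51 and 32.05 in NIH3T3, a log2 difference of 4.82 ± 0.46 (limma adjusted p = 6.6e-05) with 1 NIH3T3 array above the filter level, and its 3 tested probe sets ranged from 1.24 to 6.45. The difference was 6.51 without NIH3T3 replicate 2 and 3.98 without NIH3T3 replicate 1, and it passed in all 15 alternatives. The brightest tested probe set was chosen anew in each alternative, so these values can come from different probe sets. The probe set with the signals given here was tested only through L929. Bhlhe40, a basic helix-loop-helix repressor, was 2.07-fold higher (adjusted p = 2.1e-04), a call lost with the arrays left unscaled. Stra8, the meiosis regulator of germ cells, measured 36.1 and 19.2 in L929 and 9.02 and 3.78 in NIH3T3, which is at least 1.52-fold higher (adjusted p = 0.021). It was tested only through L929, and not at all with the arrays left unscaled or when the filter was made stricter or applied to the mean over the 4 arrays. Its call was lost with no filter (adjusted p = 0.0511) and without L929 replicate 1 (adjusted p = 0.151) or NIH3T3 replicate 2 (0.117), within 0.013 to 0.151.

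Meis2, a homeodomain cofactor, measured 274 and 172 in L929 and 331 and 368 in NIH3T3, 1.58-fold lower (limma adjusted p = 0.024). It did not pass without L929 replicate 2 (adjusted p = 0.119), NIH3T3 replicate 1 (0.0691) or NIH3T3 replicate 2 (0.106), within 2.9e-04 to 0.140, and its 4 tested probe sets ranged from -0.66 to 0.16. Tgm2, or transglutaminase 2, a widely used retinoic acid target, measured 70.9 and 43.6 in L929 and 48.0 and 50.2 in NIH3T3, with overlapping lines (adjusted p = 0.660) and a sign that turned in 3 alternatives. The 5 tested probe sets of Tgm2 had log2 differences from -0.64 to 0.24. The brightest of them was chosen anew in each alternative, so a turned sign can come from another probe set.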

How the data were processed

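Each deposited value is the intensity of a probe set on an array, a MAS5 signal per the submitters' processing notes, of unstated version and scaling target. Control probe sets were left out, the 4 arrays were brought to the same trimmed mean, which leaves out 2% of probe sets at each end (factors 1.07, 1.14, 1.13 and 0.726), and 8.01, the 25th percentile, was added before log2, so folds of dim genes are understated. The lines were compared with limma 3.58.1 (R 4.3.3), using lmFit and eBayes and a mean-variance trend, over 27438 probe sets, or over 12676 genes with the brightest tested probe set of each, with Benjamini-Hochberg adjustment over all of them. The thresholds come from the design text. "At least" marks a fold whose dim line lay under the filter level on both arrays: the brighter line's mean log2 signal against that level, which is a percentile and not a detection limit. The platform annotation gave a unique symbol to 34945 of 45037 probe sets, several to 932 and none to 9160. Promoter sequences are from RefSeq, build GRCm38.p6; the array files name no build. The procedure was tested on simulated data.

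The members and lists were chosen with earlier results of these data known. Named genes are all members, every pathway gene that passed, every tested carrier, hydroxylase and RXR partner, the 5 genes nearest to Crabp1 and to Crabp2, and the markers; other genes named were chosen after their values were seen. Alternatives were other scalings, offsets and filters, no trend, a replicate block, averaged probe sets and leaving out each array. Except with averaged probe sets, the brightest tested probe set of a gene was chosen anew in each. The value of a gene can therefore move because another probe set took its place. P-values reflect only the spread among these samples, possibly a technical one, and the number of arrays limits the precision. Same-numbered samples share only a number: their deviations correlated with r = 0.014.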

Additional observations from a re-analysis of the deposited data

How the results depend on the processing

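The directions of Crabp1 and Crabp2 held in all 14 alternatives, with log2 differences from -7.95 to -6.18 and from 5.55 to 7.51. Leaving the arrays unscaled had the widest effect, since NIH3T3 replicate 2 is brighter as deposited: the median difference over all genes went from 0.01 to -0.26 on the log2 scale, genes higher in L929 fell in number from 2187 to 794, and the share of passing genes that were higher went from 49.5% to 31.3%. Unscaled, 1 probe set of the members passed higher and 1 lower, and 6 pathway genes passed higher and 4 lower. Relative to the moved median, the unscaled differences were 0.90 for Rara and -0.68 and -0.82 for Rdh10. Leaving out 1 array gave 1 to 2 member probe sets higher and 2 to 4 lower; the 4 without L929 replicate 2 include Stra6. The shift of the Crabp2 to Crabp1 log2 ratio was 14.06 with the offset added, 14.29 with dim signals raised to the filter level, and 14.79 to 16.72 with 1 array left out. With the replicate block, 2172 genes were higher and 2233 lower, and no call of a member changed. Over 28 named pathway genes, 37 alternative values no longer passed, 4 newly passed and 364 kept their side of the thresholds, 357 of them with the same sign. The other 7, all from differences that did not pass, turned sign: Thra was -0.20 unscaled, -0.11 without L929 replicate 2 and -0.07 without NIH3T3 replicate 1, Cyp26a1 was 0.04 without L929 replicate 2, and Tgm2 was -0.09 unscaled, -0.09 with probe sets averaged and -0.51 without L929 replicate 1. The values of Tgm2 can come from different probe sets, since the brightest was chosen anew in each alternative. Signals near the filter level, as for Stra6, Rarb and Cyp26b1, limit what 2 arrays per line can show.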
